A study of Danio rerio with 27 samples.

Results

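The genes described here are the circadian clock genes of the zebrafish and some of their direct outputs, chosen by name: 40 symbols covering the period, cryptochrome, clock and arntl (Bmal) families, the nr1d (Rev-erb) and ror receptors, the transcription factors that act on the D-box, further repressors and a few rhythmic or light-driven output genes. Of these, 39 have a row among the 39988 entries of the table, and cry3 has none under that symbol and was left out. The filter on low counts kept 32 of the 39 among 15521 genes tested. The other 7 are described apart. The choice was by name and not by a rule on measured values, but it was made with earlier results of these data known.

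Expression was measured by sequencing the 3′ ends of mRNA from pools of whole zebrafish larvae, 21 days after fertilisation, with 1 library per pool. The larvae came from wild type (WT) fish or from the PY background, in which p53 is knocked out and YAP, a growth-promoting transcriptional coactivator, is constitutively overexpressed in the liver (genotype label P53KO;lf:YAP), and which is described as tumour-burdened and cachectic, that is, wasting. All embryos, controls included, were injected with CRISPR/Cas9 aimed at SLC45a2, a pigmentation gene whose loss marks injected animals by their pigment. In TGR5-KO groups a bile acid receptor was targeted as well, and in CYP7a1-KO groups an enzyme of the classical pathway of bile acid synthesis. The 3 WT groups (SLC45a2-KO, TGR5-KO, CYP7a1-KO) had 4 libraries each and the 3 matching PY groups had 5 each, 27 in all. Injected animals are mosaic in general, PY differs from WT by both engineered changes together, and pooling hides differences between larvae. The sources used here give neither the hour of collection nor the light cycle of each pool, so a difference in time of day and a difference between groups cannot be told apart. In whole larvae, fewer cells of a type and less RNA per cell cannot be told apart either.

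The vertebrate clock is a feedback loop. Clock and Bmal proteins bind as a pair to E-box elements and switch on period and cryptochrome genes, whose proteins then block that pair. Another loop runs through Rev-erb receptors, which repress Bmal genes, and ROR receptors, which activate them, and a further one through D-box elements, which the factors Dbp, Tef and Hlf activate and Nfil3 represses. In zebrafish most tissues hold clocks that respond to light directly, and light induces per2 and cry1aa, partly through D-box elements.

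The libraries held 3377345 to 6238251 counts (median 4533099), so that a count of 0 allows a level of up to 3 counts, or 0.481 to 0.888 CPM (counts scaled to the same total per library). This limit covers counting error only. Levels below are CPM scaled by TMM factors, a correction for the makeup of each library, given as mean ± SD over libraries. Changes are log2 ± SE from edgeR's quasi-likelihood test, with p-values adjusted by Benjamini-Hochberg over all 15521 genes, and a gene rose or fell where the adjusted p was under 0.05. Whether pools came from separate clutches or tanks is not stated, so p-values measure only the spread between these pools. PY CYP7a1-KO libraries 1 and 2 differed more from the other 3 of that group than those did among themselves, and counts that rest on the group, with the values named for them, are also given without both. The tags lie at the 3′ ends of transcripts and do not check the edits at the targeted genes.

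In WT larvae per2, cry1aa and lonrf1l, which light induces in zebrafish, and the D-box repressor nfil3-2 fell with either knockout. With TGR5-KO, 10 of the 32 clock genes tested fell and none rose: per2, cry1aa, cry1ab, cry5, clocka, tefa, tefb, hlfa, nfil3-2 and lonrf1l. That is 31.2% of them lower, where 3.4% of all genes tested were lower and 3.1% higher. With CYP7a1-KO, 7 fell (per2, cry1aa, nr1d1, nfil3-2, nfil3-6, ciarta and lonrf1l) and tefb rose, against 7.48% of all genes lower and 4.14% higher. Both comparisons use the same WT SLC45a2-KO libraries, so their values stand side by side and are no evidence for each other. The median log2 change of the 32 genes was -0.34 with TGR5-KO and -0.30 with CYP7a1-KO, where that of all genes was -0.01 and 0.02.

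The period gene per2 encodes a clock repressor that light induces in zebrafish. Its level was 44.1, 41.1, 44.6 and 49.5 CPM in the 4 WT SLC45a2-KO libraries, 24.6, 24.4, 20.6 and 23.3 in WT TGR5-KO and 10.1, 11.4, 15.2 and 12.2 in WT CYP7a1-KO. The 3 groups did not overlap, with the controls highest and WT CYP7a1-KO lowest. The log2 change was -0.95 ± 0.20 (adjusted p = 0.00148) with TGR5-KO and -1.86 ± 0.21 (adjusted p = 1.72e-08) with CYP7a1-KO, and the 2 knockouts also differed from each other (-0.91 ± 0.21, adjusted p = 0.00125). The other period genes, whose proteins act in the same repressor complex, did not pass the test in these 3 comparisons. In WT SLC45a2-KO, WT TGR5-KO and WT CYP7a1-KO, per1a had 15.6 ± 1.14, 12.8 ± 4.83 and 8.57 ± 3.93 CPM, with a log2 change of -0.88 ± 0.32 (adjusted p = 0.0689) under CYP7a1-KO.

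The cryptochrome gene cry1aa, also light-induced in zebrafish, had 98.6, 83.0, 79.6 and 90.9 CPM in WT SLC45a2-KO, 42.8, 45.9, 49.3 and 47.5 in WT TGR5-KO and 38.2, 46.5, 43.3 and 56.2 in WT CYP7a1-KO. Every library of either knockout was below every control library. The change was -0.92 ± 0.17 (adjusted p = 0.000251) with TGR5-KO and -0.93 ± 0.17 (adjusted p = 0.000123) with CYP7a1-KO. The gene lonrf1l, related to a family of RING finger proteins and induced by light in zebrafish, was 38.2, 51.4, 47.5 and 54.2 CPM in WT SLC45a2-KO, 16.7, 12.0, 13.4 and 16.1 in WT TGR5-KO and 13.6, 9.03, 12.1 and 12.3 in WT CYP7a1-KO. Its controls again stood above both knockouts without overlap. Its log2 changes were -1.71 ± 0.26 (adjusted p = 3.85e-05) and -2.02 ± 0.27 (adjusted p = 1.86e-06).

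**Figure D1:**
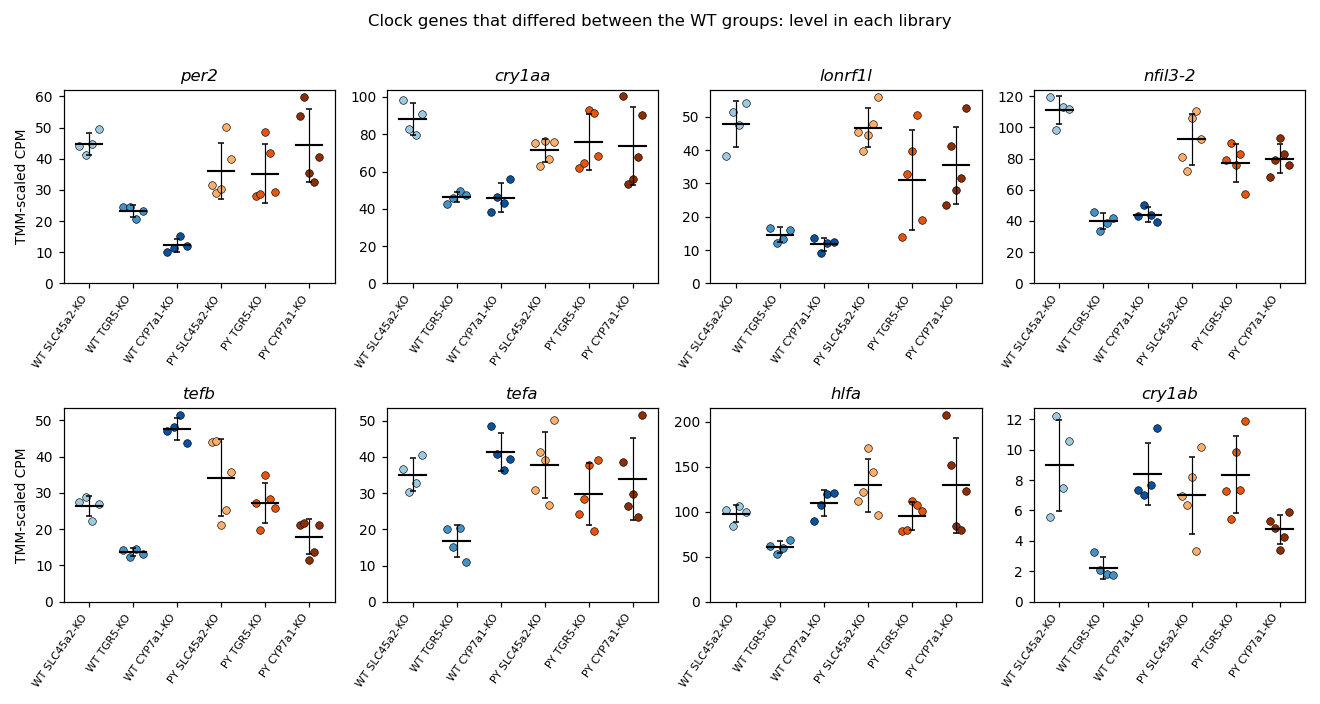
Level of 8 clock genes in each of the 27 libraries by group, in TMM-scaled CPM (each panel has its own axis from 0; bars are the mean and SD of 4 WT or 5 PY libraries). In WT, per2, cry1aa, lonrf1l and nfil3-2 are lower in both knockouts than in all 4 controls, while tefb, tefa, hlfa and cry1ab are lower in WT TGR5-KO alone.

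Among the factors that act on the D-box, the knockouts parted ways. The repressor gene nfil3-2, a relative of Nfil3, fell in both: 119.7, 98.4, 113 and 112 CPM in WT SLC45a2-KO, 45.6, 33.7, 38.7 and 41.8 in WT TGR5-KO and 43.1, 50.3, 43.7 and 39.1 in WT CYP7a1-KO. On the log2 scale it changed by -1.47 ± 0.16 (adjusted p = 4.36e-09) with TGR5-KO and -1.33 ± 0.16 (adjusted p = 4.08e-08) with CYP7a1-KO, and the libraries did not overlap with the controls. Its relative nfil3-6 had 81.6, 84.9, 86.0 and 92.4 CPM in the controls, 72.6, 59.5, 67.4 and 70.4 in WT TGR5-KO and 47.4, 53.2, 59.1 and 51.3 in WT CYP7a1-KO. For nfil3-6 the fall passed the test under CYP7a1-KO (-0.71 ± 0.18, adjusted p = 0.00489), while under TGR5-KO the log2 change was -0.35 ± 0.18 (adjusted p = 0.271). A further relative, nfil3-5, changed in no comparison.

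The activator gene tefb, which encodes a PAR bZIP factor that binds the D-box, was 27.5, 28.9, 22.3 and 27.02 CPM in WT SLC45a2-KO, 14.3, 12.5, 14.7 and 13.3 in WT TGR5-KO and 47.0, 48.3, 51.4 and 43.9 in WT CYP7a1-KO. No library of any of the 3 groups overlapped with another group, with TGR5-KO lowest and CYP7a1-KO highest. It fell with TGR5-KO (-0.95 ± 0.22, adjusted p = 0.00337) and rose with CYP7a1-KO (0.85 ± 0.21, adjusted p = 0.00339), and the difference between the knockouts was 1.80 ± 0.22 (adjusted p = 3.92e-08). Its paralogue tefa had 36.7, 30.2, 32.7 and 40.6 CPM in the controls, 19.99, 15.2, 20.4 and 11.1 in WT TGR5-KO and 48.6, 40.9, 36.4 and 39.5 in WT CYP7a1-KO. WT TGR5-KO alone was low. For tefa the change was -1.07 ± 0.23 (adjusted p = 0.00167) with TGR5-KO, 0.24 ± 0.22 (adjusted p = 0.568) with CYP7a1-KO and 1.31 ± 0.23 (adjusted p = 3.38e-05) between the knockouts. The related activator hlfa measured 102, 83.9, 106 and 100.3 CPM in the controls, 61.7, 52.6, 59.3 and 68.6 in WT TGR5-KO and 90.3, 108, 119.9 and 121 in WT CYP7a1-KO. The WT TGR5-KO libraries lay below those of both other groups, with log2 changes of -0.69 ± 0.21 (adjusted p = 0.0327) against the controls and 0.86 ± 0.21 (adjusted p = 0.00221) for CYP7a1-KO over TGR5-KO. The call of hlfa under TGR5-KO was lost in 6 of 8 fits that left out 1 library (all but those without WT SLC45a2-KO 2 or WT TGR5-KO 4, with a log2 change of -0.71 to -0.65).

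The cryptochrome cry1ab, a paralogue of cry1aa, had 5.59, 12.2, 7.5 and 10.6 CPM in WT SLC45a2-KO, 3.26, 2.08, 1.83 and 1.74 in WT TGR5-KO and 7.37, 7.02, 7.70 and 11.4 in WT CYP7a1-KO. It was low in WT TGR5-KO alone, with no overlap. The log2 change was -2.0 ± 0.36 (adjusted p = 0.000165) with TGR5-KO, -0.10 ± 0.32 (adjusted p = 0.897) with CYP7a1-KO and 1.90 ± 0.36 (adjusted p = 0.000101) between the knockouts. The light-dependent DNA repair photolyase gene cry5 followed the same order of means: 6.36 ± 2.04 CPM in the controls, 1.27 ± 1.02 in WT TGR5-KO and 4.58 ± 2.29 in WT CYP7a1-KO. It fell with TGR5-KO (-2.31 ± 0.53, adjusted p = 0.00317) and was higher with CYP7a1-KO than with TGR5-KO (1.84 ± 0.53, adjusted p = 0.01), where the call was lost without WT TGR5-KO 3 or WT CYP7a1-KO 4 (log2 change 1.49 to 1.57). The activator gene clocka fell with TGR5-KO from 6.46 ± 2.72 to 2.31 ± 0.897 CPM (-1.48 ± 0.46, adjusted p = 0.0413). This call was lost in 6 of 8 fits that left out 1 library (all but those without WT SLC45a2-KO 1 or WT TGR5-KO 2, with a log2 change of -1.61 to -1.15).

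The repressor genes nr1d1 and ciarta fell with CYP7a1-KO, and both were lower than with TGR5-KO. The receptor gene nr1d1, which encodes a Rev-erb repressor of Bmal genes, had 5.59, 4.71, 4.17 and 3.40 CPM in WT SLC45a2-KO, 5.00, 5.76, 8.96 and 9.15 in WT TGR5-KO and 1.38, 2.21, 1.31 and 0.19 in WT CYP7a1-KO. All 4 WT CYP7a1-KO libraries were below the lowest library of either other group. The log2 change was -1.80 ± 0.51 (adjusted p = 0.0149) with CYP7a1-KO, 0.70 ± 0.42 (adjusted p = 0.399) with TGR5-KO and -2.49 ± 0.49 (adjusted p = 0.000229) between the knockouts; the first call was lost without WT CYP7a1-KO 4 (log2 change -1.43). The gene ciarta, whose mammalian counterpart Chrono represses the Clock and Bmal pair, had 60.6, 50.1, 45.8 and 54.4 CPM in the controls, 56.3, 57.6, 47.9 and 64.5 in WT TGR5-KO and 32.2, 29.3, 29.2 and 29.1 in WT CYP7a1-KO. The 4 WT CYP7a1-KO libraries were again the lowest of the 3 groups. For ciarta the change was -0.82 ± 0.22 (adjusted p = 0.0112) with CYP7a1-KO and -0.92 ± 0.22 (adjusted p = 0.00237) between the knockouts, against 0.10 ± 0.22 (adjusted p = 0.873) with TGR5-KO.

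Compared directly in WT, CYP7a1-KO larvae had 7 clock genes higher than TGR5-KO larvae (cry1ab, cry5, rorcb, tefa, tefb, hlfa and aanat2) and 3 lower (per2, nr1d1 and ciarta), where 9.27% of all genes were higher and 11.8% lower. These counts are 21.9% and 9.38% of the 32 genes. The receptor gene rorcb, an activator in the Rev-erb loop, had 24.1 to 37.1 CPM in WT CYP7a1-KO and 13.7 to 17.6 in WT TGR5-KO (0.86 ± 0.30, adjusted p = 0.0375), a call lost in 6 of 8 fits that left out 1 library (all but those without WT CYP7a1-KO 3 or 4, with a log2 change of 0.70 to 0.93). The melatonin synthesis gene aanat2, expressed in the pineal gland, had 3.41 to 7.05 and 0.692 to 2.83 CPM (1.48 ± 0.54, adjusted p = 0.0423). That call was lost in 6 of 8 fits that left out 1 library (all but those without WT TGR5-KO 4 or WT CYP7a1-KO 2, with a log2 change of 1.24 to 1.54), and with the replicate number as a block (1.49, adjusted p = 0.055).

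Among markers of cell types, the 17 hepatocyte markers summed to 8833 to 10216 CPM in WT CYP7a1-KO, 14074 to 18225 in WT SLC45a2-KO and 15326 to 18930 in WT TGR5-KO, and none of them was at 0. The 17 neuron markers summed to 1373 to 1603 CPM in WT CYP7a1-KO, 1127 to 1337 in the controls and 1093 to 1334 in WT TGR5-KO, with slc17a7a at 0 throughout. The 8 pinealocyte markers summed to 42.1 to 56.2, 27.3 to 38.4 and 25.5 to 30.8 CPM in the same order. Most of each sum was the marker otx5, with means of 46.4, 28.8 and 23.9 CPM, and only 2 of the 8 were tested. The 20 skeletal muscle markers summed to 57747 to 71340 CPM in WT TGR5-KO, 70298 to 79777 in the controls and 70232 to 98683 in WT CYP7a1-KO. Of these markers, ckma was at 0 in all WT libraries, pvalb2 in WT TGR5-KO and the controls, and mylpfa in WT CYP7a1-KO. Of 17 muscle markers tested, 4 fell with TGR5-KO (23.5%, against 3.4% of all genes), where the muscle creatine kinase gene ckmb had -0.68 ± 0.14 (adjusted p = 0.00138). With CYP7a1-KO 3 rose and 1 fell (17.6% and 5.88%, against 4.14% and 7.48% of all genes). The part of these markers in the changes of the clock genes was not tested.

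In the tumour-burdened PY background with SLC45a2-KO alone, 7 of the 32 clock genes were higher in PY than in WT (per3, cry2, nr1d1, dbpa, dbpb, bhlhe40 and ciarta) and 2 lower (arntl1b and aanat2). That is 21.9% higher and 6.25% lower, where 17.9% of all genes tested were higher and 17.7% lower; the share higher is near the background. The genes that were higher include the repressors nr1d1, bhlhe40, ciarta and per3, the cryptochrome gene cry2 and the activators dbpa and dbpb. The repressors per1a, per1b, per2, cry1aa, cry1ab, cry1bb, nfil3-2, nfil3-5 and nfil3-6 were not called. The other tested Rev-erb genes, nr1d2a, nr1d2b and nr1d4a, were not called either. The light-induced genes per2, cry1aa and lonrf1l did not pass the test here, at log2 changes of -0.31 ± 0.19, -0.30 ± 0.16 and -0.04 ± 0.23, although all 5 PY libraries were below all 4 WT libraries for cry1aa.

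The cryptochrome gene cry2 had 103, 110.3, 94.1, 101 and 83.7 CPM in the PY SLC45a2-KO libraries and 45.0, 43.2, 32.7 and 32.1 in WT SLC45a2-KO. Every PY library was above the highest WT one (1.36 ± 0.23, adjusted p = 1.52e-05). The repressor ciarta had 109.5, 107, 131, 119 and 132 CPM in PY SLC45a2-KO, above all 4 WT values given before (1.18 ± 0.21, adjusted p = 1.95e-05). The gene bhlhe40 encodes Dec1, which represses at E-box elements, and had 94.7, 108, 112, 97.3 and 100.3 CPM in PY against 49.2, 39.2, 47.3 and 38.4 in WT. All 5 PY libraries were above all 4 WT libraries (1.24 ± 0.21, adjusted p = 1.2e-05). The Rev-erb gene nr1d1 had 13.4, 16.0, 20.4, 20.4 and 18.9 CPM in PY SLC45a2-KO, all above the WT libraries (1.99 ± 0.39, adjusted p = 9.14e-05). The more abundant Rev-erb gene nr1d2a had 78.3 ± 14.1 CPM in PY and 76.0 ± 8.56 in WT (0.04 ± 0.15, adjusted p = 0.861). For nr1d2b and nr1d4a the changes were -0.10 ± 0.24 (adjusted p = 0.777) and 0.79 ± 0.52 (adjusted p = 0.243).

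The Bmal gene arntl1b, a target of Rev-erb repression, was on the other side: 2.08, 0, 0.249, 0.553 and 0.212 CPM in PY and 3.80, 5.56, 5.63 and 2.27 in WT (-2.77 ± 0.74, adjusted p = 0.00255). Of the PY libraries only library 1 exceeded the 3 counts that a count of 0 allows, and without it the log2 change was -4.04. Its paralogue arntl1a had 4.21 ± 1.95 CPM in PY and 4.84 ± 0.931 in WT, with a change of -0.21 ± 0.40 (95% interval -1.01 to 0.58). The D-box activator genes dbpa and dbpb rose to 98.9 ± 13.9 from 71.3 ± 7.68 CPM (0.47 ± 0.14, adjusted p = 0.00727) and to 4.36 ± 0.857 from 1.18 ± 0.933 CPM (1.89 ± 0.54, adjusted p = 0.00492). For dbpb the change was 2.50 without WT SLC45a2-KO 1. The period gene per3 rose to 103 ± 10.2 from 71.8 ± 10.1 CPM (0.53 ± 0.17, adjusted p = 0.0107), a call lost without WT SLC45a2-KO 3 (log2 change 0.46). The pineal gene aanat2 fell to 0.9 ± 0.689 from 3.79 ± 1.36 CPM (-2.06 ± 0.55, adjusted p = 0.00254).

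**Figure D2:**
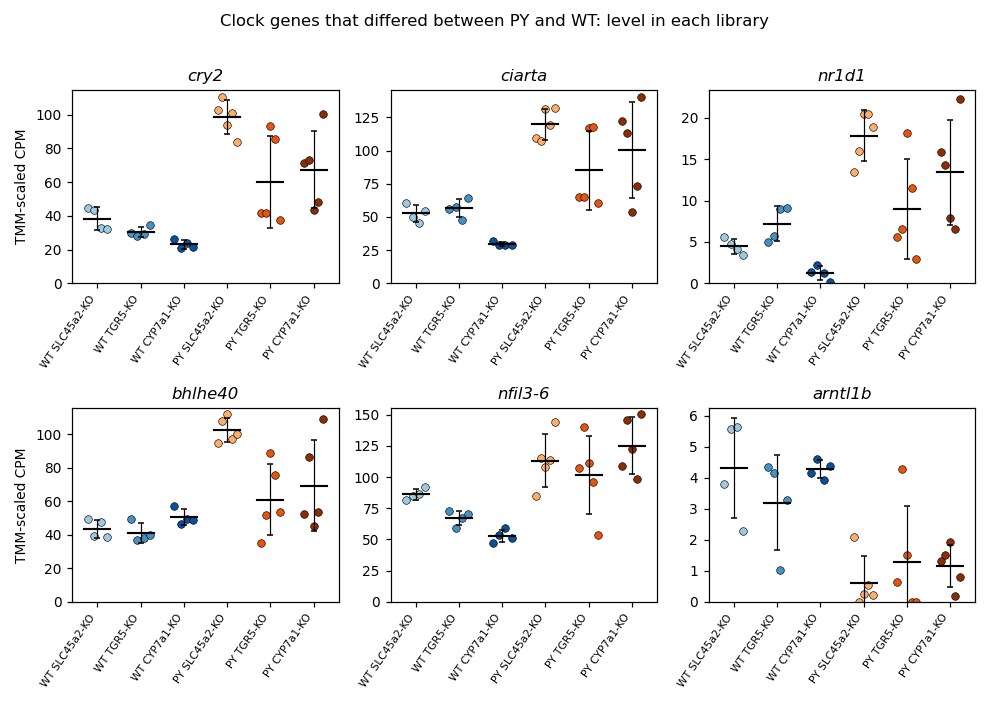
Level of 6 clock genes in each library by group, in TMM-scaled CPM (each panel has its own axis from 0; bars are the mean and SD of 4 WT or 5 PY libraries). The 5 PY SLC45a2-KO libraries lie above all WT libraries for cry2, ciarta, nr1d1 and bhlhe40, while for cry2, ciarta and nr1d1 the PY TGR5-KO and PY CYP7a1-KO libraries spread from WT levels to PY SLC45a2-KO levels. For bhlhe40 the PY CYP7a1-KO libraries do so, and the PY TGR5-KO libraries stay below the PY SLC45a2-KO ones.

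Markers of the eye, liver, skeletal muscle, nervous system and pineal gland differed between PY and WT with SLC45a2-KO alone. The 27 photoreceptor markers found in the table summed to 386 to 570.0 CPM in PY SLC45a2-KO, 787 to 962 in PY TGR5-KO and 799 to 1042 in PY CYP7a1-KO, against 1402 to 2187 over the 3 WT groups, with rcvrna and rcvrn2 at 0 throughout. Hepatocyte markers summed to 18305 to 30676 CPM over the PY groups. With SLC45a2-KO alone 10 of 17 tested were higher in PY and 3 lower (58.8% and 17.6%, against 17.9% and 17.7% of all genes). Among those lower was ahsg2 (-5.38 ± 0.36, adjusted p = 6.78e-11). Skeletal muscle markers summed to 44152 to 60805 CPM in PY SLC45a2-KO, below its WT controls, to 64089 to 87241 in PY TGR5-KO and to 59141 to 92744 in PY CYP7a1-KO. Of the 17 muscle markers tested, 11 were lower and 2 higher in PY with SLC45a2-KO alone (64.7% and 11.8%, against 17.7% and 17.9% of all genes). Under TGR5-KO 5 were higher and 2 lower in PY than in WT (29.4% and 11.8%, against 11.5% and 8.42%). Under CYP7a1-KO 1 was higher and 6 lower (5.88% and 35.3%, against 13.3% and 9.93%). Within PY 11 rose with TGR5-KO (64.7%, against 6.34% of all genes). With CYP7a1-KO 11 rose and 1 fell (64.7% and 5.88%, against 7.49% and 5.9%). Neuron markers summed to 938 to 1100 CPM in PY SLC45a2-KO, also below its WT controls, to 1031 to 1258 in PY TGR5-KO and to 873 to 1301 in PY CYP7a1-KO. With SLC45a2-KO alone 5 of 16 tested neuron markers were lower in PY and none higher (31.2% lower, against 17.7% of all genes). Pinealocyte markers summed to 13.8 to 26.7 CPM in PY SLC45a2-KO, below the range of its WT controls, with parapinopsina and gngt1 at 0 throughout. The part of these markers in the PY changes was not tested.

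Further comparisons set PY against WT under the same knockout. With TGR5-KO, 13 were higher and none lower (per2, cry1aa, cry1ab, cry2, cry5, clocka, tefa, tefb, hlfa, nfil3-2, nfil3-6, ciarta and lonrf1l), or 40.6% of 32, where 11.5% of all genes were higher and 8.42% lower. With CYP7a1-KO, 11 were higher (per1b, per2, cry1aa, cry2, nr1d1, nr1d2a, nr1d4a, nfil3-2, nfil3-6, ciarta and lonrf1l) and 3 lower (cry1bb, arntl1b and tefb), or 34.4% and 9.38%, where 13.3% of all genes were higher and 9.93% lower. The median log2 change of the 32 genes was 0.40 in each, against 0.02 and 0.01 over all genes. Leaving out PY CYP7a1-KO libraries 1 and 2 together gave 11 higher and 1 lower in the second comparison, with log2 changes of 1.55 for per2, 3.25 for nr1d1, 1.57 for ciarta and -1.62 for tefb. The WT libraries in these comparisons are those with the falls described above.

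In PY larvae per2 had 28.0, 28.7, 48.5, 41.8 and 29.3 CPM with TGR5-KO and 53.6, 59.7, 35.4, 32.6 and 40.4 with CYP7a1-KO, and 31.4, 28.9, 30.4, 50.3 and 40.1 with SLC45a2-KO alone. Under either knockout every PY library lay above the WT libraries of that knockout. The change from WT to PY was 0.60 ± 0.19 (adjusted p = 0.0221) under TGR5-KO and 1.84 ± 0.20 (adjusted p = 9.06e-10) under CYP7a1-KO. The first call was lost without WT TGR5-KO 3 or PY TGR5-KO 3 or 4 (log2 change 0.46 to 0.54). For cry1aa the PY libraries had 75.1, 63.2, 76.1, 66.6 and 75.9 CPM with SLC45a2-KO alone, 61.9, 64.4, 92.9, 91.2 and 68.4 with TGR5-KO and 101, 53.3, 55.8, 68.1 and 90.3 with CYP7a1-KO. They overlapped with WT CYP7a1-KO in the lowest PY CYP7a1-KO values and did not overlap with WT TGR5-KO. From WT to PY it rose by 0.71 ± 0.17 (adjusted p = 0.00132) and 0.68 ± 0.16 (adjusted p = 0.00167) under TGR5-KO and CYP7a1-KO.

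The level of nfil3-2 in PY was 80.9, 72.0, 106, 111 and 92.2 CPM with SLC45a2-KO alone, 79.2, 89.9, 76.0, 82.8 and 57.5 with TGR5-KO and 67.9, 79.4, 93.3, 83.0 and 75.7 with CYP7a1-KO. Under either knockout every PY library exceeded every WT library (0.95 ± 0.15, adjusted p = 5.57e-06, with TGR5-KO and 0.86 ± 0.15, adjusted p = 1.88e-05, with CYP7a1-KO). Its relative nfil3-6 had 84.6, 115, 108, 114 and 144.6 CPM in PY SLC45a2-KO, 108, 139.8, 111, 95.7 and 53.8 in PY TGR5-KO and, at the lowest, median and highest, 98.5, 122 and 150.3 in PY CYP7a1-KO. The higher level in PY was clear of the WT range under CYP7a1-KO (1.24 ± 0.17, adjusted p = 2.22e-07) and overlapped with it under TGR5-KO (0.59 ± 0.17, adjusted p = 0.00905), where the call was lost without PY TGR5-KO 2 (log2 change 0.42). The light-induced lonrf1l had 45.3, 39.8, 44.5, 47.8 and 55.8 CPM in PY SLC45a2-KO, 13.9, 32.8, 39.6, 50.5 and 18.9 in PY TGR5-KO and 23.6, 41.2, 28.1, 31.5 and 52.5 in PY CYP7a1-KO. PY TGR5-KO libraries 1 and 5 were near the WT TGR5-KO level and the rest above it. The change was 1.09 ± 0.26 (adjusted p = 0.00191) under TGR5-KO and 1.59 ± 0.26 (adjusted p = 1.38e-05) under CYP7a1-KO.

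Among the D-box activators, tefb moved in opposite directions under the knockouts. In PY tefb had 44.1, 44.3, 21.1, 25.4 and 35.8 CPM with SLC45a2-KO alone, 27.1, 19.9, 35.1, 28.4 and 25.9 with TGR5-KO and 21.2, 21.8, 11.6, 13.7 and 21.1 with CYP7a1-KO. PY was higher than WT under TGR5-KO (0.99 ± 0.21, adjusted p = 0.000418) and lower under CYP7a1-KO (-1.42 ± 0.20, adjusted p = 2.51e-07), in both without overlap. For tefa the PY libraries had 31.0, 41.4, 39.1, 26.8 and 50.2 CPM with SLC45a2-KO alone, 24.1, 28.5, 37.9, 19.5 and 39.3 with TGR5-KO and 38.7, 26.4, 29.8, 23.3 and 51.5 with CYP7a1-KO, and the change passed the test under TGR5-KO (0.84 ± 0.22, adjusted p = 0.0048). The level of hlfa was 112, 122, 171, 144.8 and 96.9 CPM with SLC45a2-KO alone, 78.6, 80.2, 112, 108 and 100.4 with TGR5-KO and 208, 152.4, 84.5, 79.6 and 123 with CYP7a1-KO. PY CYP7a1-KO library 1 was the highest of all 27 libraries for hlfa, and the change passed the test under TGR5-KO (0.66 ± 0.20, adjusted p = 0.0144), a call lost without WT TGR5-KO 2 (log2 change 0.60).

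Among cryptochromes and repressors under the knockouts, cry2 had 41.9, 42.0, 93.4, 85.5 and 37.3 CPM in PY TGR5-KO and 71.6, 73.0, 43.3, 48.3 and 100.4 in PY CYP7a1-KO. In WT it had 29.8, 28.1, 29.1 and 34.4 CPM with TGR5-KO and 26.3, 20.9, 23.9 and 21.5 with CYP7a1-KO. Both PY groups were above the matching WT libraries (0.98 ± 0.23, adjusted p = 0.00246, and 1.54 ± 0.24, adjusted p = 8.61e-06). The paralogue cry1ab had 6.93, 6.36, 8.21, 3.32 and 10.2 CPM in PY SLC45a2-KO, 7.26, 5.42, 9.84, 7.36 and 11.9 in PY TGR5-KO and 5.30, 4.85, 3.43, 4.28 and 5.92 in PY CYP7a1-KO. It was higher in PY under TGR5-KO (1.89 ± 0.35, adjusted p = 7.01e-05), where the WT level was low. The repressor ciarta had 64.7, 65.1, 117, 118 and 60.6 CPM in PY TGR5-KO and 122, 113, 53.6, 73.0 and 140.2 in PY CYP7a1-KO. The change was 1.74 ± 0.21 (adjusted p = 9.69e-08) under CYP7a1-KO without overlap, and 0.59 ± 0.21 (adjusted p = 0.0389) under TGR5-KO, where the call was lost in 5 of 9 fits that left out 1 library (all but those without WT TGR5-KO 4 or PY TGR5-KO 1, 2 or 5, with a log2 change of 0.42 to 0.59), and with the replicate number as a block (0.57, adjusted p = 0.0742). For nr1d1 the values were 5.55, 6.55, 18.2, 11.6 and 2.91 CPM in PY TGR5-KO and 15.9, 14.2, 7.94, 6.59 and 22.3 in PY CYP7a1-KO. Only the CYP7a1-KO comparison passed the test (3.38 ± 0.46, adjusted p = 6.41e-07).

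Other clock genes changed in 1 of these 2 comparisons. The activator clocka was higher in PY under TGR5-KO, at 5.95 ± 2.84 CPM (1.36 ± 0.45, adjusted p = 0.0255), a call lost without WT TGR5-KO 3 or 4 or PY TGR5-KO 4 (log2 change 1.02 to 1.28). The photolyase cry5 was higher in PY under TGR5-KO, at 4.03 ± 1.82 CPM (1.64 ± 0.53, adjusted p = 0.0206), a call lost without WT TGR5-KO 3 or 4 or PY TGR5-KO 3 or 4 (log2 change 1.27 to 1.5), and under the block (1.45, adjusted p = 0.0508). Under CYP7a1-KO the period gene per1b was higher in PY (70.5 ± 11.8 against 45.6 ± 7.48 CPM, 0.63 ± 0.17, adjusted p = 0.00409). The Rev-erb gene nr1d2a was higher as well (77.9 ± 9.11 against 55.5 ± 13.3 CPM, 0.49 ± 0.15, adjusted p = 0.0165), a call lost without WT CYP7a1-KO 1 or 2 (log2 change 0.38 to 0.39). The fish Rev-erb gene nr1d4a had 3.98 ± 2.79 against 1.31 ± 1.11 CPM (1.65 ± 0.55, adjusted p = 0.0229), a call lost without WT CYP7a1-KO 2 or 3 or PY CYP7a1-KO 5 (log2 change 1.15 to 1.47) and under the block (1.43, adjusted p = 0.0768), while without WT CYP7a1-KO 1 the change was 2.26. The genes cry1bb and arntl1b were lower, besides tefb. The cryptochrome cry1bb had 1.73 ± 0.33 against 4.51 ± 0.83 CPM (-1.35 ± 0.44, adjusted p = 0.0192), a call lost without WT CYP7a1-KO 4 (log2 change -1.23) and without PY CYP7a1-KO libraries 1 and 2 together (-1.20). The Bmal gene arntl1b had 1.15 ± 0.68 against 4.26 ± 0.293 CPM (-1.91 ± 0.69, adjusted p = 0.0371), a call lost in 6 of 9 fits that left out 1 library (all but those without PY CYP7a1-KO 1, 2 or 3, with a log2 change of -1.96 to -1.62), under the block (-1.72, adjusted p = 0.0702) and without both those libraries (-2.15).

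Within PY larvae, few clock genes passed the test between knockouts and controls. With TGR5-KO, 2 of 32 fell (cry2 and bhlhe40) and none rose, where 5.01% of all genes fell and 6.34% rose. With CYP7a1-KO, 2 fell (tefb and bhlhe40) and aanat2 rose, where 5.9% of all genes fell and 7.49% rose. Those shares, 6.25% lower in each comparison and 3.12% higher in the second, are near or under the background. The median log2 change of the 32 genes was -0.22 with TGR5-KO and -0.14 with CYP7a1-KO, against 0.02 over all genes in each. An unadjusted p under 0.05 in edgeR's test was found for 10 and 6 of them, where WT had 11 and 14. The share of all genes under that unadjusted threshold was not counted, so these numbers have no background to be read against. Between CYP7a1-KO and TGR5-KO in PY no clock gene passed edgeR's test (nor DESeq2's), where 0.058% of all genes were higher and 0.0773% lower at the adjusted threshold. In that comparison 3 clock genes (cry1ab, tefb and hlfa) had an unadjusted p under 0.05 in edgeR's test, again with no count over all genes.

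For bhlhe40 the libraries had 34.8, 51.7, 88.8, 75.7 and 53.3 CPM in PY TGR5-KO and 52.2, 86.6, 45.0, 53.8 and 109 in PY CYP7a1-KO, against 94.7 to 112 in the PY controls. In WT the level was 49.3, 36.7, 38.1 and 40.1 CPM with TGR5-KO and 57.1, 46.1, 49.5 and 48.8 with CYP7a1-KO. All PY TGR5-KO libraries were below the controls (-0.75 ± 0.19, adjusted p = 0.0079). PY CYP7a1-KO library 5 was within the control range and the other 4 below it (-0.56 ± 0.19, adjusted p = 0.0452). That second call was lost in 7 of 10 fits that left out 1 library (all but those without PY SLC45a2-KO 1 or PY CYP7a1-KO 2 or 5, with a log2 change of -0.59 to -0.47), under the block (-0.59, adjusted p = 0.0517) and without PY CYP7a1-KO 1 and 2 together (-0.58). For cry2 under TGR5-KO the change was -0.72 ± 0.21 (adjusted p = 0.0223) and the call was lost without PY TGR5-KO 1, 2 or 5 (log2 change -0.64 to -0.60). For tefb under CYP7a1-KO it was -0.95 ± 0.19 (adjusted p = 0.000426) and this call held in every fit that left out 1 library and without PY CYP7a1-KO 1 and 2 together (-1.16). The pineal gene aanat2 had 1.58 to 5.04 CPM in PY CYP7a1-KO and 0 to 1.74 in the controls (1.60 ± 0.55, adjusted p = 0.0415). Its call was lost in 7 of 10 fits that left out 1 library (all but those without PY SLC45a2-KO 3 or PY CYP7a1-KO 3 or 5, with a log2 change of 1.26 to 1.75), under the block (1.63, adjusted p = 0.0539) and without PY CYP7a1-KO 1 and 2 together (1.18).

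The number of genes called in these 2 comparisons depended on single libraries. With TGR5-KO the count of 2 became 4 without PY SLC45a2-KO 1 or PY TGR5-KO 3, 6 without PY TGR5-KO 4, and 1 without PY TGR5-KO 2 or 5. With CYP7a1-KO the count of 3 became 6 without PY CYP7a1-KO 5 and 1 without PY SLC45a2-KO 2, PY SLC45a2-KO 4 or PY CYP7a1-KO 4. Leaving out PY CYP7a1-KO 1 and 2 together gave 2, both lower, of which tefb is among the 3. PY TGR5-KO libraries 3 and 4 stood near the PY controls and libraries 1, 2 and 5 far below them for cry2 and ciarta, and PY CYP7a1-KO libraries 1, 2 and 5 stood above libraries 3 and 4 for the same genes and nr1d1.

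Whether a knockout acted differently in the 2 backgrounds was tested directly, by subtracting the change in WT from the change in PY. For TGR5-KO, 5 clock genes had a higher value in PY (per2, cry1aa, cry1ab, nfil3-2 and lonrf1l) and nr1d1 a lower one, where 3.94% of all genes were higher and 2.76% lower. For CYP7a1-KO, 5 were higher (per2, cry1aa, nfil3-2, nfil3-6 and lonrf1l) and tefb lower, where 10.8% of all genes were higher and 6.98% lower. These counts are 15.6% and 3.12% of the 32 genes in either case. For per2, the difference was 0.91 ± 0.27 (adjusted p = 0.029) for TGR5-KO and 2.15 ± 0.27 (adjusted p = 1.41e-07) for CYP7a1-KO: it fell in WT and did not pass the test in PY (-0.04 ± 0.18 and 0.29 ± 0.18). For nfil3-2 the difference was 1.21 ± 0.21 (adjusted p = 8.73e-05) and 1.12 ± 0.21 (adjusted p = 9.47e-05). For cry1aa it was 1.01 ± 0.23 (adjusted p = 0.00298) and 0.98 ± 0.23 (adjusted p = 0.00173).

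Among the genes called, the largest difference under TGR5-KO was that of cry1ab (2.24 ± 0.47, adjusted p = 0.00109), which under CYP7a1-KO was -0.47 ± 0.44 (adjusted p = 0.52). Under CYP7a1-KO tefb rose in WT and fell in PY, and the difference was -1.80 ± 0.28 (adjusted p = 7.88e-06). For lonrf1l it was 1.63 ± 0.35 (adjusted p = 0.000938) under CYP7a1-KO and 1.12 ± 0.35 (adjusted p = 0.0402) under TGR5-KO, the latter call lost in 14 of 18 fits that left out 1 library (all but those without WT SLC45a2-KO 1, PY SLC45a2-KO 5 or PY TGR5-KO 1 or 5, with a log2 change of 0.86 to 1.20). The per2 call under TGR5-KO was lost without WT SLC45a2-KO 4, WT TGR5-KO 3, PY SLC45a2-KO 1, 2 or 3 or PY TGR5-KO 3 or 4 (log2 change 0.78 to 0.86). The nr1d1 difference under TGR5-KO (-1.70 ± 0.54, adjusted p = 0.0495) was lost in 14 of 18 fits that left out 1 library (all but those without WT TGR5-KO 1, PY SLC45a2-KO 1 or PY TGR5-KO 3 or 4, with a log2 change of -1.84 to -1.48), and under the block (-1.70, adjusted p = 0.0752). For nfil3-6 the difference under CYP7a1-KO was 0.85 ± 0.24 (adjusted p = 0.00846). Without WT SLC45a2-KO 4, WT TGR5-KO 3 or PY SLC45a2-KO 2 the TGR5-KO count of 6 became 3. Without PY CYP7a1-KO 1 and 2 together all 6 CYP7a1-KO calls held, at 1.86 for per2, 0.93 for cry1aa, -2.0 for tefb, 1.19 for nfil3-2, 0.83 for nfil3-6 and 1.70 for lonrf1l.

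**Figure D3:**
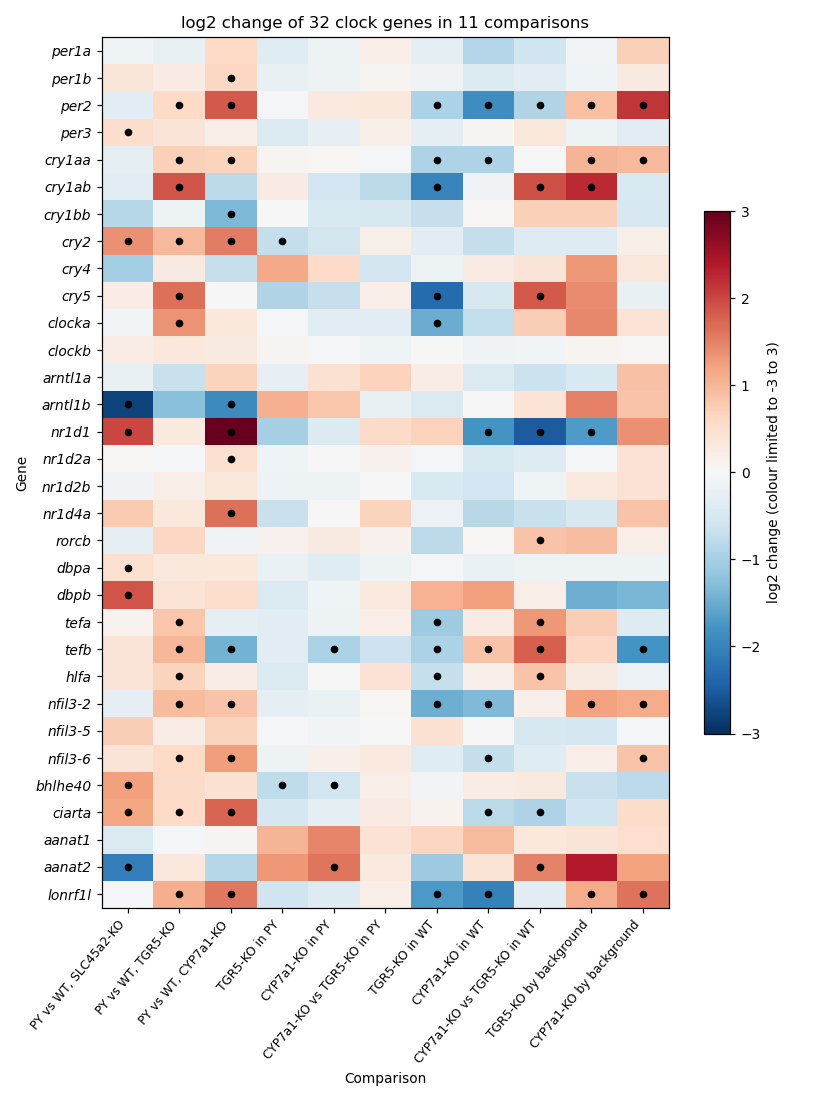
Fitted log2 change of the 32 tested clock genes (rows) in 11 comparisons (columns); red is higher in the first group named, blue lower, colours end at 3 and -3, and a dot marks an adjusted p under 0.05 from edgeR over all 15521 genes. The 2 WT knockout columns hold 10 and 7 lower calls (31.2% and 21.9% of 32, against 3.4% and 7.48% of all genes). The PY knockout columns hold 2 lower calls each (6.25%, against 5.01% and 5.9%). With CYP7a1-KO, tefb in WT and aanat2 in PY were called higher. Calls in either PY knockout column numbered 1 to 6 with 1 library left out.

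The other 7 of the tested clock genes passed in none of the 9 comparisons between 2 groups. These are the period gene per1a, the cryptochrome cry4, which does not repress in zebrafish cell assays, the activators clockb and arntl1a, the Rev-erb gene nr1d2b, nfil3-5, and aanat1, the retinal counterpart of aanat2. The best measured of them, clockb, had group means of 12.1 to 15.9 CPM, and its change between PY and WT with SLC45a2-KO alone was 0.22 ± 0.25 (95% interval -0.29 to 0.72). For cry4 the PY change with SLC45a2-KO alone was -1.03 ± 0.43 (adjusted p = 0.0534, 95% interval -1.88 to -0.17), and the TGR5-KO change in PY 1.14 ± 0.41 (adjusted p = 0.0583, 95% interval 0.32 to 1.96). For aanat1 the CYP7a1-KO change in PY was 1.46 ± 0.67 (95% interval 0.12 to 2.79).

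The 7 genes that the filter removed were too low for the model. Over all libraries cry1ba had 9 counts and npas2, a paralogue of clock, had 4, while arntl2, rorca and nfil3 were listed at 0 in all 27. The fish Rev-erb gene nr1d4b had 66 counts and bhlhe41, which encodes the E-box repressor Dec2, had 77. In exact two-sided permutation tests over 9 comparisons each, nr1d4b had its lowest p for TGR5-KO in PY (4 against 32 counts, exact p = 0.00794, the smallest that 5 against 5 can give) and next for PY against WT with SLC45a2-KO (32 against 1 count, exact p = 0.0159). For bhlhe41 the lowest was PY against WT with SLC45a2-KO (5 against 19 counts, exact p = 0.0238). None of the 18 passed after adjustment (adjusted exact permutation p = 0.143 for each of these 3).

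Within a library, the ratio of nr1d1 to its target arntl1b needs no library total. It was taken with a prior count added to both, which sets much of its value where either gene has 3 counts or fewer. Its log2 was 0.10 ± 0.48 (SD, n = 4) in WT SLC45a2-KO and 1.17 ± 1.13 in WT TGR5-KO. In WT CYP7a1-KO the 4 libraries ran from -2.94 to -0.93 and lay below every other library, the lowest of them with 1 count of nr1d1. That group averaged 1.27 CPM of nr1d1 and 4.26 of arntl1b, against 4.47 and 4.31 in WT SLC45a2-KO, so arntl1b hardly differed. In PY SLC45a2-KO library 1 had 9 counts of arntl1b and a ratio of 2.46, while the other 4 had 0 to 2 counts and a ratio that the prior holds down. The same is true of PY TGR5-KO libraries 1, 4 and 5 and PY CYP7a1-KO library 4. The remaining PY libraries had 0.56 and 3.25 with TGR5-KO and 1.82 to 4.21 with CYP7a1-KO. The ratio combines 2 genes already described and was not tested.

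**Figure D4:**
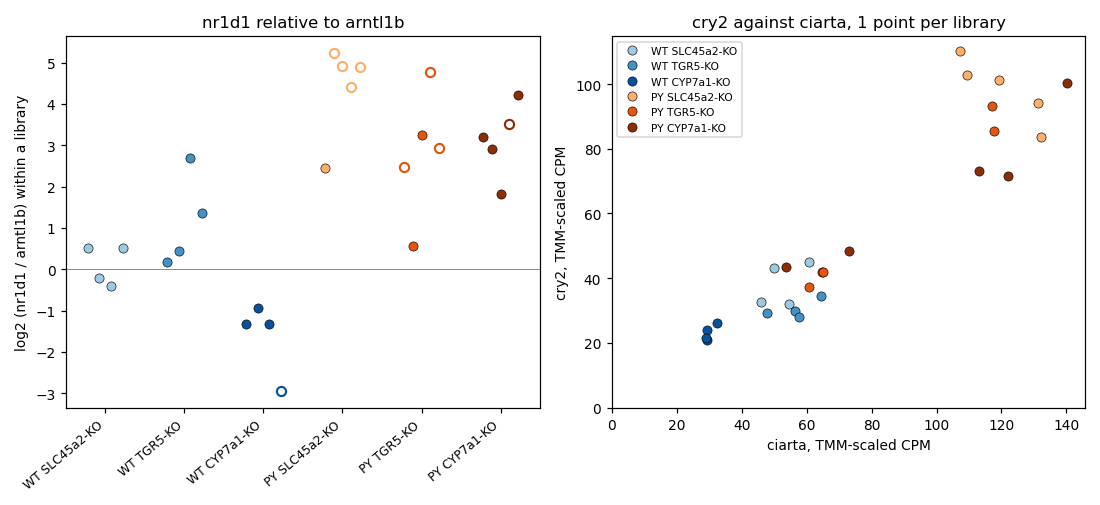
Left, log2 ratio of nr1d1 to arntl1b in each library by group, lowest in WT CYP7a1-KO (open symbols are libraries with 3 counts or fewer of either gene, whose ratio depends on the prior count). Right, cry2 against ciarta in TMM-scaled CPM, 1 point per library: PY TGR5-KO libraries fall into a low and a high set for both genes, and PY CYP7a1-KO libraries spread from low to high.

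Whether clock genes varied together between pools of the same group was examined on log2 levels with group means removed, over 8 pairs and 27 libraries. For per1b and per3, Pearson's r was 0.645 (permutation p = 0.00236, adjusted over the 8 pairs 0.00629) and Spearman's rho 0.612 (permutation p = 0.00403, adjusted 0.0107). The adjustment also covers 2 pairs that were added after their values had been seen and that had lower p-values. Over the pairs chosen beforehand alone, both adjusted values would be larger. Without the 2 libraries farthest from the median of per1b, r was 0.613. In PY libraries alone (n = 15) r was 0.841 and in WT libraries alone (n = 12) 0.234, a difference that was not tested. For cry2 with ciarta and ciarta with nr1d1, added after their values had been seen, no coefficient is given. In these genes PY TGR5-KO libraries 3 and 4 stood above 1, 2 and 5, and PY CYP7a1-KO libraries 1, 2 and 5 above 3 and 4. Each of these sets is too small for a value of its own. The same libraries were the higher ones for per1b and per3, so their coefficient in PY cannot be told apart from this split. Levels in 1 library share its depth and scaling.

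The other 5 pairs did not pass. For nr1d1 with arntl1b r was 0.09 (rho = -0.0385, adjusted permutation p = 0.837 and 0.899), for nr1d1 with nr1d2a -0.0525 (rho = -0.194, adjusted 0.837 and 0.52) and for arntl1b with clocka 0.162 (rho = 0.193, adjusted 0.731 and 0.52). The light-induced per2 and cry1aa had r = 0.306 and rho = 0.377 (adjusted permutation p = 0.494 and 0.243). The D-box activators tefa and dbpb had r = 0.1 and rho = 0.0287 (adjusted permutation p = 0.837 and 0.899).

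Regulators of the clock that are not among the 40 genes were taken from the same fits. Of 48 listed, 38 have a row and 32 were tested: kinases, ubiquitin ligases, co-regulators and ror receptors. In WT 2 rose and 2 fell with TGR5-KO (6.25% each, where 3.1% of all genes rose and 3.4% fell), and 1 rose and 1 fell with CYP7a1-KO (3.12% each, against 4.14% and 7.48%). The corepressor gene ncor1, which works with Rev-erb receptors, fell in both (-2.82 ± 0.65, adjusted p = 0.00356, and -1.92 ± 0.57, adjusted p = 0.0205), and rorb rose with CYP7a1-KO (1.1 ± 0.30, adjusted p = 0.0114). Mean ncor1 was 3.29 CPM in WT SLC45a2-KO, 0.442 in WT TGR5-KO and 0.881 in WT CYP7a1-KO. Both knockout means are near the level that a count of 0 allows. Between PY and WT, 6 rose and 7 fell with SLC45a2-KO alone (18.8% and 21.9%, against 17.9% and 17.7% of all genes), 5 and 2 with TGR5-KO (15.6% and 6.25%, against 11.5% and 8.42%), and 6 and 2 with CYP7a1-KO (18.8% and 6.25%, against 13.3% and 9.93%). These shares are near the background. The coactivator gene crebbpa was higher in PY in all 3 (2.81 ± 0.52, adjusted p = 2.22e-05, 2.7 ± 0.57, adjusted p = 0.000354, and 2.21 ± 0.55, adjusted p = 0.00224). Its WT means of 1.05, 0.635 and 0.757 CPM are near the same limit. In PY 6 rose with TGR5-KO and 2 with CYP7a1-KO (18.8% and 6.25%, against 6.34% and 7.49% of all genes) and none fell, among them wdr5, part of a histone methylation complex (0.81 ± 0.17, adjusted p = 0.000601, and 0.86 ± 0.17, adjusted p = 0.000219).

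Genes of light input were mostly too low to test: of 39 listed, 35 have a row and 9 were tested. Between PY and WT with SLC45a2-KO alone 2 rose and 1 fell (22.2% and 11.1%, against 17.9% and 17.7% of all genes). The gene mknk2b, which encodes a kinase downstream of MAP kinases, was higher in PY with SLC45a2-KO alone (2.49 ± 0.17, adjusted p = 7.93e-15). It was also higher in PY under TGR5-KO (2.33 ± 0.18, adjusted p = 2.42e-13) and CYP7a1-KO (1.06 ± 0.17, adjusted p = 5.61e-06). It fell with TGR5-KO in WT (-1.28 ± 0.18, adjusted p = 4.21e-06) and in PY (-1.44 ± 0.15, adjusted p = 2.06e-08) and with CYP7a1-KO in PY (-1.59 ± 0.16, adjusted p = 2.06e-09). No other gene of light input was called with TGR5-KO in WT, and with CYP7a1-KO in WT hmox1a, a haem oxygenase gene, was the 1 called (-2.52 ± 0.48, adjusted p = 0.000225). In each that is 11.1% of the 9 lower, where 3.4% and 7.48% of all genes were lower. Within PY 2 fell with TGR5-KO and 1 with CYP7a1-KO (22.2% and 11.1%, against 5.01% and 5.9% of all genes). Of 24 pineal and melatonin genes 5 were tested, and 4 were lower in PY with SLC45a2-KO alone, where 17.7% of all genes were lower. These include the pineal opsin gene exorh (-2.33 ± 0.69, adjusted p = 0.00618) and crx (-0.95 ± 0.38, adjusted p = 0.0442), which photoreceptors of the eye express as well. Mean exorh in PY SLC45a2-KO was 0.635 CPM, near the level that a count of 0 allows.

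Of 35 outputs of the clock known from zebrafish or mammals, 27 were tested. In WT, 4 fell and 2 rose with TGR5-KO and 5 fell and 1 rose with CYP7a1-KO, with a median log2 change of -0.32 and -0.17 (-0.01 and 0.02 over all genes). The shares lower were 14.8% and 18.5%, against 3.4% and 7.48% of all genes, and the shares higher 7.41% and 3.7%, against 3.1% and 4.14%. The gene namptb, for a step of NAD synthesis, fell in both (-2.38 ± 0.34, adjusted p = 4.22e-06, and -2.30 ± 0.34, adjusted p = 3.34e-06), and klf11b fell with TGR5-KO (-1.72 ± 0.25, adjusted p = 4.22e-06), while tfr1b, a transferrin receptor gene, rose with TGR5-KO (1.81 ± 0.39, adjusted p = 0.00501). Between PY and WT, 10 rose and 5 fell with SLC45a2-KO alone (37.0% and 18.5%, against 17.9% and 17.7% of all genes), 12 and 1 with TGR5-KO (44.4% and 3.7%, against 11.5% and 8.42%), and 11 and 3 with CYP7a1-KO (40.7% and 11.1%, against 13.3% and 9.93%). With SLC45a2-KO alone tfr1b was higher in PY (3.04 ± 0.38, adjusted p = 1.07e-06), and klf11a (-2.80 ± 0.63, adjusted p = 0.000383) and namptb (-1.79 ± 0.31, adjusted p = 6.24e-06) were lower, and the cell cycle inhibitor gene cdkn1d was higher with TGR5-KO (1.66 ± 0.16, adjusted p = 1.8e-11). Mean klf11a in PY SLC45a2-KO was 0.495 CPM, near the level that a count of 0 allows. Within PY, 1 rose and 2 fell with TGR5-KO (3.7% and 7.41%, against 6.34% and 5.01% of all genes) and 2 rose and 5 fell with CYP7a1-KO (7.41% and 18.5%, against 7.49% and 5.9%). The kinase gene sik1 fell with both (-1.01 ± 0.17, adjusted p = 4.63e-05, and -1.16 ± 0.17, adjusted p = 3.54e-06), and hsd11b2, whose enzyme inactivates cortisol, rose with both (0.98 ± 0.13, adjusted p = 5.25e-07, and 1.13 ± 0.13, adjusted p = 1.87e-08).

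Genes of the glucocorticoid response, a hormonal input to peripheral clocks, were counted the same way: 17 of 24 were tested. In PY against WT, 8 rose and 2 fell with SLC45a2-KO alone (47.1% and 11.8%, against 17.9% and 17.7% of all genes), 12 rose and none fell with TGR5-KO (70.6% higher, against 11.5%), and 10 rose and 2 fell with CYP7a1-KO (58.8% and 11.8%, against 13.3% and 9.93%). The median log2 changes were 0.43, 0.92 and 0.83, where those of all genes were -0.02, 0.02 and 0.01. The kinase gene sgk1 (3.06 ± 0.26, adjusted p = 7.18e-11) and the C/EBP factor cebpb (2.69 ± 0.20, adjusted p = 4.32e-15) were higher with SLC45a2-KO alone. In WT, 4 fell and 2 rose with TGR5-KO (23.5% and 11.8%, against 3.4% and 3.1% of all genes) and 6 fell and 1 rose with CYP7a1-KO (35.3% and 5.88%, against 7.48% and 4.14%), among the falls ddit4 with CYP7a1-KO (-1.54 ± 0.23, adjusted p = 5.31e-06) and zbtb16a with TGR5-KO (-1.80 ± 0.29, adjusted p = 0.000145). In PY, 7 fell and 2 rose with TGR5-KO (41.2% and 11.8%, against 5.01% and 6.34% of all genes) and 6 fell and 2 rose with CYP7a1-KO (35.3% and 11.8%, against 5.9% and 7.49%), among the falls cebpb (-1.14 ± 0.17, adjusted p = 5.9e-06, and -1.17 ± 0.17, adjusted p = 3.35e-06). The genes klf9, pck1, dusp1 and hsd11b2 stand in this list and in that of clock outputs. The part of this response in the changes of the clock genes was not tested.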

How the data were processed

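The deposited table holds read counts per gene for 27 libraries, as raw counts per the labels, and CPM columns that the authors computed from them (recomputed here within 0.0005). Libraries were made with Lexogen QuantSeq from total RNA, per the labels' protocols. The submitters' processing notes name the builds danRer10 and GRCz11 without a role. No source used here names the aligner, counting tool, strand setting or annotation, so reads shared by paralogues such as tefa and tefb may be split between them.

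The test was that of edgeR 4.0.16 (R 4.3.3), with TMM scaling (factors 0.91 to 1.07), the standard expression filter (15521 of 39988 entries kept), a fit of 6 group means to all 27 libraries, robust quasi-likelihood estimation (common biological coefficient of variation 0.264) and Benjamini-Hochberg adjustment per comparison at 0.05. Of the 11 comparisons, 9 are between 2 groups and 2 are interactions. Genes below the filter with at least 10 counts had an exact permutation test. Within-group relations and the nr1d1 to arntl1b ratio used log2 CPM with a prior count of 2, and 100000 permutations within groups. The procedure was tested on simulated data. Pairs of libraries of the same group had a Pearson's r of 0.889 to 0.957 and differed beyond sampling noise (chi-square over its degrees of freedom 4.21 to 21.8), so no library repeats another.

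The genes and lists were chosen with earlier results of these data known. Values of every library are printed for the 13 genes that were called in 3 or more of the 9 comparisons and averaged 5 CPM or more (nfil3-6 in PY CYP7a1-KO by its range and median), and other lists are named by up to 3 called genes per comparison. The alternatives were another tool (DESeq2 1.42.0), other scaling (RLE, or TMM leaving out genes above 1% of counts), other filters (none, or 5 CPM in 4 libraries), a fit of just the compared groups, a block for replicate number, estimation that is not robust, leaving out each library, and, added after the data were seen, PY CYP7a1-KO libraries 1 and 2 left out together. What the replicate numbers stand for is not stated. Over 39 pairs of same-numbered libraries the correlation of deviations over all genes tested was -0.104 to 0.0624. A planned description of promoter motifs was not run, since promoter sequences were not used here.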

Additional observations from a re-analysis of the deposited data

Results flagged for a closer look

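Within groups of 4 or 5 libraries, 192 sets of clock gene levels were examined for a library far from the rest of its group, and 7 were marked, where chance marks about 1 in 20. These are cry1ab at 11.4 CPM in WT CYP7a1-KO 4, cry1bb at 0.829 CPM in PY SLC45a2-KO 4, clocka at 10.5 CPM in WT SLC45a2-KO 2, arntl1b at 2.08 CPM in PY SLC45a2-KO 1, rorcb at 9.86 CPM in PY CYP7a1-KO 5, ciarta at 32.2 CPM in WT CYP7a1-KO 1 and aanat1 at 5.70 CPM in WT CYP7a1-KO 4. They come from several libraries, and WT CYP7a1-KO 4 is the library marked for more than 1 gene.

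The effect of a knockout differed between the PY and WT backgrounds for 12 gene and knockout pairs in edgeR's interaction test (adjusted p under 0.05 over 15521 genes). For TGR5-KO the difference of log2 changes, PY minus WT, was 0.91 for per2, 1.01 for cry1aa, 2.24 for cry1ab, -1.70 for nr1d1, 1.21 for nfil3-2 and 1.12 for lonrf1l. For CYP7a1-KO it was 2.15 for per2, 0.98 for cry1aa, -1.80 for tefb, 1.12 for nfil3-2, 0.85 for nfil3-6 and 1.63 for lonrf1l. The genes in both sets (per2, cry1aa, nfil3-2 and lonrf1l) are read against the same SLC45a2-KO control libraries of WT and PY, so the sets are no evidence for each other.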

How the results depend on the processing

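Of 81 called changes of clock genes, none reversed under any alternative. Under all alternatives that gave a value, 58 kept their call, and 23 lost it when some single library was left out. A gene that an alternative filter removed has no value there. Among the 58 this holds for arntl1b and aanat2 (PY against WT, SLC45a2-KO) under the filter of 5 CPM in 4 libraries. Among the 23 a value is also missing for cry1bb, arntl1b and nr1d4a (PY against WT, CYP7a1-KO). The same is true of aanat2 with CYP7a1-KO in PY and with CYP7a1-KO against TGR5-KO in WT. Of 1477 alternative values, 1350 kept the call and 127 lost it. The counts of clock genes called in WT, between backgrounds and in the CYP7a1-KO interaction stayed within 1.5 times the reported count. Counts within PY did not. For TGR5-KO in PY the reported 2 became 5 with DESeq2 and 6 without the filter, and 1 to 6 with 1 library left out. For CYP7a1-KO in PY the reported 3 became 1 when only the groups compared were fitted, 1 with the replicate number as a block, and 1 to 6 with 1 library left out. The TGR5-KO interaction count of 6 became 3 to 6 with 1 library left out. The cause was not tested. The replicate block ended 9 calls, which were cry5 and ciarta (PY against WT, TGR5-KO), arntl1b and nr1d4a (PY against WT, CYP7a1-KO), bhlhe40 and aanat2 (CYP7a1-KO in PY), hlfa (TGR5-KO in WT), aanat2 (CYP7a1-KO against TGR5-KO in WT) and nr1d1 (TGR5-KO interaction). What the replicate numbers stand for is not stated, so whether these 9 effects are weaker cannot be told from the block. At this depth, genes of low level rest on few counts per library, such as arntl1b, nr1d4a and aanat2 (means of 2.31, 2.77 and 2.66 CPM).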
